A study of Homo sapiens with 7 samples.

Results

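ALDH-low clone L3 was derived from UM-UC-3, an established line of human bladder (urothelial) cancer, and was set against the 2 other ALDH-low clones of the same line, L1 and L8. The comparison used 3 of the 7 libraries of the study and 12967 of the 13872 genes listed, namely those with at least 1 CPM (reads of a gene scaled by library size to a common total) in 1 or more of the 3 clones. The study sorted UM-UC-3 cells by the ALDEFLUOR assay, in which cells fluoresce according to the activity of aldehyde dehydrogenase (ALDH), and grew ALDH-high clones, which the submitters call cancer stem-like, and ALDH-low clones, which they call non-stem-like. Total RNA was sequenced from ALDH-high clones H1, H6 and H10, from ALDH-low clones L1, L3 and L8, and from wild-type UM-UC-3 as control. The labels give DMEM with 10% serum as the medium of the ALDH-high clones and name no drug, transgene or other treatment for any culture. All 7 cultures come from 1 line, and each clone gave 1 library.

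For each gene, the gap of L3 is its difference from the nearer of L1 and L8 on the log2(CPM + 1) scale, and it is 0 where L3 lies between them. A gap of 1 unit or more is counted here as standing apart. This scale understates the change of genes near 0 CPM. With 1 library per clone no difference has a replicate check, so no p-value is given and every value is a description of these libraries. In bulk RNA, fewer cells with a transcript and less of it per cell cannot be told apart.

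Clones of a cancer line descend from different founder cells of a mixed population, and they can differ in chromosome copies and in which genes are silenced or active. Cells sorted alike by 1 enzyme activity can therefore differ in genes that the sort did not measure. Among the gene groups that set cancer clones apart are adhesion molecules and matrix enzymes, which determine how cells attach and move, and chemokines, secreted proteins that attract leukocytes and whose genes are often switched on by the transcription factor NF-kB.

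L3 stood apart from both other ALDH-low clones in 451 genes (3.48% of 12967), being higher in 206 (1.59%) and lower in 245 (1.89%). By the same measure L1 stood apart in 179 genes, with 114 higher (0.879%) and 65 lower (0.501%), and L8 in 98, with 44 higher (0.339%) and 54 lower (0.416%). L3 thus had more such genes than L1 and L8 combined. In the ALDH-high group, among 13058 genes chosen by the same minimum, H1 stood apart in 758 genes, of which 645 were lower, H6 in 175 and H10 in 108. L3 therefore was not the clone with the most genes standing apart in the study, but its genes were split more evenly between higher and lower than those of H1.

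**Figure D1:**
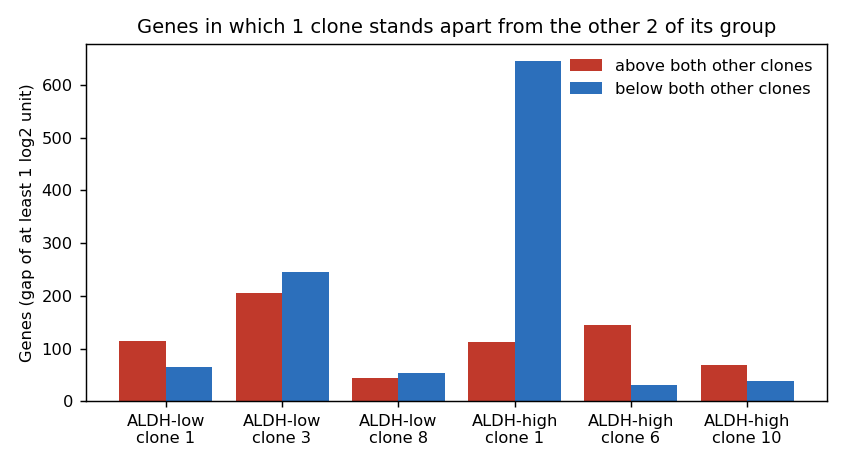
Number of genes (vertical axis) in which each clone of a group (horizontal axis, 1 library each) lay at least 1 log2 unit above (red) or below (blue) both other clones of its group. ALDH-low clone 3 (L3) has 206 and 245 such genes against 114 and 65 for clone 1 and 44 and 54 for clone 8, while ALDH-high clone 1 has 645 lower genes.

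Counted by pairs, L3 and L1 differed by at least 1 log2 unit in 908 of the 12967 genes, and L3 and L8 in 809, whereas L1 and L8 differed in 361. Across genes, Pearson's r was 0.959 for L3 with L1, 0.963 for L3 with L8 and 0.977 for L1 with L8, where the genes are not independent replicates. L3 was nearer to H6 (997 genes) than to H10 (1142), H1 (1598) or wild type (2367). The wild-type library differed as much from L1 (2331) and L8 (2625), so L3 was not the ALDH-low clone nearest to the parent by this count. Over all member genes L3 was the highest of the 3 clones in 4658, the lowest in 4521 and between the others in 3788.

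The recovered reads summed to 24177114 to 25664901 per library over the listed genes, and a single read is worth about 0.04 CPM. Where no read was counted, levels of up to 0.118 to 0.123 CPM remain possible (3 reads per library). In all 451 genes the exact 95% interval of the ratio of reads between L3 and the nearer clone excluded 1. At this depth a gap of 1 unit already requires that outcome, so it adds no support to the calls. These intervals and limits cover counting error only, not the variation between cultures. Read numbers were recovered from rounded CPM, and in L3 and H6 not all values come out as whole reads at a stricter tolerance, so the read numbers and ratios printed for L3 are less certain than those for L1 and L8. Of the 451 genes, 32 share all 7 values with another listed gene, so that their reads may belong to either, and 1 gene per such set leaves 196 higher and 237 lower. Just inside the threshold lay ZNF20, ANKRD33B and ZFPM2, and just outside it RP11-476K15.1, TTN-AS1 and VPS41, each with a gap of 1 unit in size when rounded. Pseudogenes and close copies are uncertain as well, such as SRP9P1, with the gap next in size to that of NCAM1 (0.80, 91.49 and 1.20 CPM in L1, L3 and L8), DHFRP1 and NOMO2. No source used here says whether counting used strand, so reads of overlapping antisense genes may be mixed.

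The RNA of ALDH1A1 and GRIK2, which the sort did not measure, was at or near 0 in L3 as in the other ALDH-low clones. ALDH1A1, which oxidises retinaldehyde, was at 0.08 CPM in L3 and at 0 CPM in L1 and L8, and GRIK2, the glutamate receptor subunit named in the title of the series, at 0.04 CPM in L3 and at 0 in both others. None of 10 aldehyde dehydrogenase genes among the members stood apart in L3. Of 15 genes chosen for their higher level in the ALDH-low than in the ALDH-high clones, 2 stood higher in L3 and 2 lower. TNC, a matrix glycoprotein, was at 7.88, 37.79 and 5.08 CPM in L1, L3 and L8 and SLC43A3, a nucleobase transporter, at 5.16, 18.23 and 5.16. DGKI, a diacylglycerol kinase, was at 17.92, 4.20 and 27.76 CPM, and COX7B2, a cytochrome oxidase subunit, at 19.92, 4.79 and 18.12. That list was chosen on these same libraries, so it is no independent evidence of a direction.

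Markers of cell types other than the line were few in the table. Of 20 immune markers only CD68 was listed, at 64.36 to 92.88 CPM in the 3 clones, and of 19 endothelial and stromal markers only TIE1 and ENG, at 0.56 to 3.36 and 26.40 to 30.68 CPM. None of the 3 stood apart in L3. The defining genes of leukocytes, endothelium and fibroblasts on those lists were otherwise outside the table and were not analysed here. Of 17 basal urothelial markers, CD44 (541.43 CPM in L3) and EGFR (37.16) were the members, and neither stood apart. Of the 9 luminal markers listed, KRT18 was lower and PPARG higher in L3. None of 14 mesenchymal genes stood apart, VIM being at 1164.40, 1037.26 and 1459.68 CPM in L1, L3 and L8.

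Some of the wide gaps were of the on and off kind. In 6 genes L3 had at least 5 CPM where L1 and L8 had 0 reads (NCAM1, TNIK, TSPYL5, CLEC2B, RP11-1152H15.1 and C6orf141). In 4 genes L3 had 0 reads where L1 and L8 both had at least 5 CPM (ADAMTS12, CTSZ, EVA1A and ZNF90). Gaps of at least 2 units were found in 50 higher and 40 lower genes. L1 and L8 were both at 0 reads in 29 of the 206 higher genes, and L3 was at 0 reads in 19 of the 245 lower ones. Over all 12967 members these numbers were 29 and 42. A gene at 0 in L1 and L8 became a member only through L3. The minimum of 1 CPM therefore fixed its gap at 1 unit or more. Where L1 and L8 had only a few reads, the minimum nearly fixed it. NCAM1, CDH6, CDH11, RTN1, SEMA5A, SEMA3E, MMP3 and MMP1, described below, became members only through L3. The counts of higher genes in their lists are therefore no support.

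**Figure D2:**
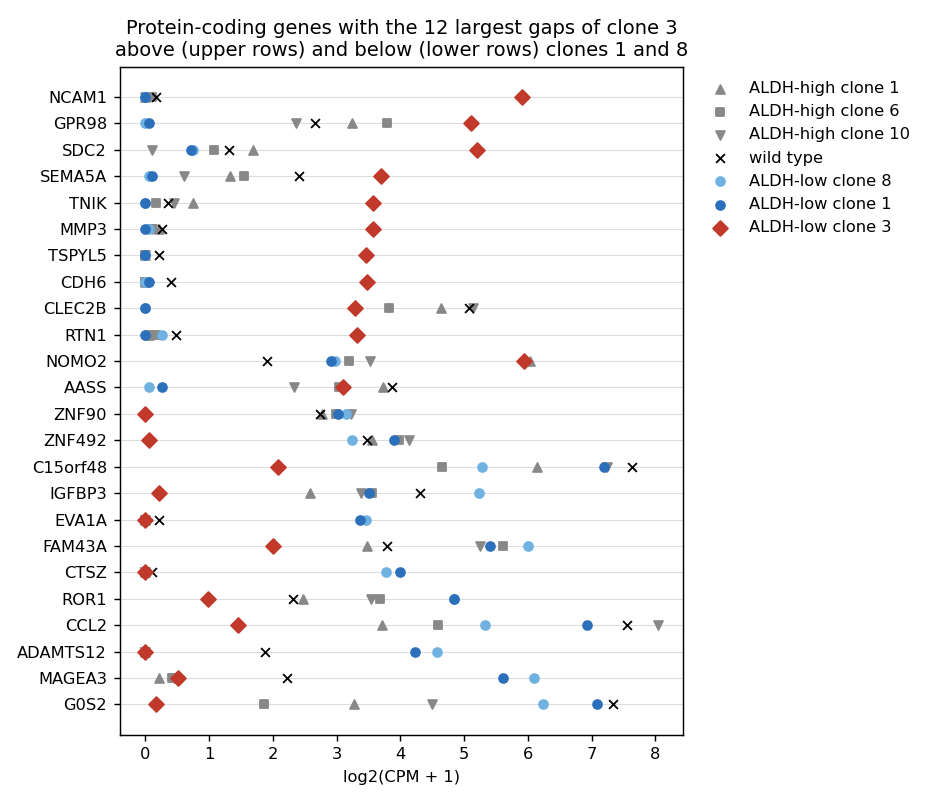
Level of each protein-coding gene among the 12 largest gaps above and the 12 largest below, as log2(CPM + 1) on the horizontal axis, with 1 point per library. In the upper genes ALDH-low clone 3 (red diamonds) lies above clones 1 and 8 (blue circles), NCAM1 having the largest gap at 5.90 units, and in the lower genes it lies below them, G0S2 having the largest at -6.07.

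The largest gap above was that of NCAM1, the neural cell adhesion molecule that many neuroendocrine cells carry. It was at 58.81 CPM in L3 and at 0 in L1 and L8. The values were 0, 0.08 and 0 CPM in H1, H6 and H10 and 0.12 CPM in wild type. L3 alone carried it among the 7 libraries at more than a few reads, at least 490.1-fold above the limit that 0 reads allow in L1 and L8. SDC2, a heparan sulfate proteoglycan of the cell surface, was at 0.64, 35.79 and 0.68 CPM in L1, L3 and L8, 52.6-fold above L8, and at 0.08 to 2.23 CPM in the other 4 libraries. CDH6, a type II cadherin, was at 0.04, 10.10 and 0 CPM, with 257 reads in L3 against 1 in L1 (ratio 252.5, counting interval 44.9 to 10007). It was at 0 in all 3 ALDH-high clones and at 0.32 CPM in wild type. For all 3 genes the L3 value lay above every other library.

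The 15 cadherin and protocadherin members held 2 genes higher in L3 and 1 lower, beside 1.59% and 1.89% of all genes. These background shares apply to every list count that follows. The 2 higher genes, CDH6 and CDH11, became members only through L3, so the minimum of 1 CPM fixed or nearly fixed their call. CDH11, another type II cadherin, was at 2.32 CPM in L3, at 0 in L1 and L8 and at 2.68 CPM in wild type, so that here L3 was near the parent. PCDHB2, a clustered protocadherin, was at 2.36, 0 and 1.04 CPM in L1, L3 and L8. CDH2, the N-cadherin, was at 21.88, 43.29 and 20.40 CPM, a difference under 1 unit. Of 11 integrin members only ITGB3, the partner of the vitronectin receptor chain ITGAV, stood apart, at 4.20, 36.26 and 12.32 CPM against 1.31 to 5.75 CPM in the other 4 libraries. A pair of identifiers carries the symbol ITGB3 with the same values. ITGAV itself was at 22.76, 30.01 and 35.60 CPM, with L3 between the others.

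Genes known from neurons were found on both sides. Of 15 members of the neuronal and neuroendocrine list, 3 were higher in L3 and 1 lower, beside 1.59% and 1.89% of all genes, and the median difference of L3 from the mean of L1 and L8 was -0.33, beside 0.0057 over all genes. RTN1, a reticulon of the endoplasmic reticulum, was at 0, 9 and 0.20 CPM in L1, L3 and L8 and at 0.04 to 0.40 CPM elsewhere. Of the higher genes, NCAM1 and RTN1 became members only through L3. VGF, a secreted neuropeptide precursor, was at 47.04, 106.65 and 25.68 CPM but at 161.26 to 288.71 CPM in the other 4 libraries, so L3 stood between the ALDH-low clones and the rest. L1CAM, an adhesion molecule of axons, was at 18.40, 2.40 and 16.36 CPM and at 0.24 to 1.68 CPM in the other 4 libraries. In L1CAM, L3 was nearer to the ALDH-high clones and wild type than to L1 and L8. Among 20 axon guidance members, SEMA5A was at 0.08, 11.90 and 0.04 CPM, with 303 reads in L3 against 2 in L1 (ratio 149, counting interval 40.8 to 1234). SEMA3E was at 0, 3.81 and 0 CPM, below 4.64 to 26.11 CPM in the ALDH-high clones and wild type. Both SEMA5A and SEMA3E became members only through L3. The semaphorin receptors NRP1 (7.40, 2.71 and 13.32 CPM) and NRP2 (4.04, 1.14 and 12.32 CPM) and the ligand SEMA7A (5.6, 0.75 and 2.64 CPM) were lower in L3. In the ALDH-high clones and wild type NRP1 was at 1.48 to 3.08 CPM, NRP2 at 3.2 to 7.43 and SEMA7A at 0.72 to 3.04. Only for NRP2 was L3 below them all.

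Matrix enzymes divided in both directions too. Of 22 member proteases and inhibitors, 3 were higher and 2 lower, beside 1.59% and 1.89% of all genes, and the median difference from the mean of L1 and L8 was 0.17. MMP3, a stromelysin, was at 0, 10.92 and 0.04 CPM in L1, L3 and L8, with 278 reads against 1 in L8 (ratio 273, counting interval 48.6 to 10822), and at 0.08 to 0.20 CPM in the other 4 libraries. MMP1, the interstitial collagenase, was at 0.12, 2.12 and 0.20 CPM, far below the 25.14 CPM of wild type. Both MMP3 and MMP1 became members only through L3. CTSB, the lysosomal cathepsin B, was at 510.20, 1122.90 and 440.32 CPM, and L3 had the highest level of the 7 libraries. ADAMTS12, a secreted metalloprotease, was at 17.84 and 22.84 CPM in L1 and L8 and at 0 in L3, at least 151-fold lower. CTSZ, the cathepsin Z, was at 14.92 and 12.64 CPM and at 0 in L3, at least 107-fold lower. In both ADAMTS12 and CTSZ the 3 ALDH-high clones were also at 0, so L3 shared the ALDH-high value and L1 and L8 stood out, with wild type at 2.68 and 0.08 CPM.

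Among 23 structural matrix genes 2 were higher in L3 and 5 lower, beside 1.59% and 1.89% of all genes, with a median difference of -0.14 from the mean of L1 and L8. TNC, given above, and the basement membrane collagen chain COL4A6 (0.36, 2.55 and 0.12 CPM in L1, L3 and L8) were the higher ones. LAMB3, a chain of the laminin on which epithelial cells sit, was at 16.96, 1.65 and 18.40 CPM, with wild type at 13.07 CPM and the ALDH-high clones at 1.11 to 3.68 CPM. COL6A2 (18.72, 5.93 and 46.64 CPM), COL5A1 (4.88, 1.10 and 6.80), HSPG2 (12.72, 2.95 and 9.40) and COL13A1 (27.60, 6.36 and 14.16) were lower as well. The ALDH-high clones had 2.98 to 7.26 CPM of COL6A2, 0.4 to 3.65 of HSPG2 and 1.27 to 6.2 of COL13A1, so L3 was at or near their level. They had 1.47 to 4.68 CPM of COL5A1, above L3. Wild type had 12.95, 3.92, 2.04 and 16.59 CPM of COL6A2, COL5A1, HSPG2 and COL13A1. HAS2, which makes hyaluronan, was at 11.32, 0 and 4.56 CPM, at least 38.7-fold lower in L3 than in L8, while every other library had 2.82 CPM or more. PLOD2, a lysyl hydroxylase that prepares collagen for cross-linking and that was picked after its values were seen, was at 469.24, 95.73 and 346.84 CPM.

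Of 5 keratin-list members, KRT18, a keratin of simple epithelia, was at 413.28, 142.95 and 350.80 CPM in L1, L3 and L8 and at 351.98 to 582.39 CPM in the other 4 libraries, so L3 had the lowest level of all 7. KRT15 was at 11.72, 1.41 and 4.68 CPM against 54.03 CPM in wild type. The keratin-associated gene KRTAP2-3 was higher, at 3.92, 18.27 and 6.80 CPM, near the 18.34 CPM of wild type, with 1.91 to 7.6 CPM in the ALDH-high clones. KRT8, the usual partner of KRT18, was at 99.80, 88.70 and 56.16 CPM, with L3 between the others. CLDN1, a tight junction protein, was at 6.76, 0.27 and 2.60 CPM.

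Receptor and growth factor genes held some of the widest gaps. ROR1, a receptor of the Wnt ligand WNT5A, was at 27.64 and 27.80 CPM in L1 and L8 and at 0.98 CPM in L3, 28.2-fold below L1, with 4 to 11.82 CPM in the other 4 libraries. WNT5A itself was at 3.6, 0.04 and 2.52 CPM, and at 0.12 to 0.29 CPM outside the ALDH-low clones. LGR4, a receptor for R-spondins, was at 17.48, 0.27 and 6.2 CPM, and at 0.24 to 1.88 CPM in the other 4 libraries. For WNT5A and LGR4, L1 and L8 were thus the high libraries. The ligand and these 2 receptors were all lowest in L3 among the ALDH-low clones, but the Wnt list as a whole hardly differed. Of its 22 members, 2 were lower (LGR4 and WNT5A) and 0 higher. L3 was the highest of the 3 clones in 7 and the lowest in 9, with a median difference of -0.04 from the mean of L1 and L8. DVL1, a cytoplasmic Wnt transducer picked after its values were seen, was at 33.56, 11.51 and 39.00 CPM.

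Of 33 members of the list of receptor tyrosine kinases, ligands and binding proteins, 2 were higher in L3 (IGFBP2 and FGF1) and 4 lower (ROR1, IGFBP3, IGFBP4 and VEGFA). IGFBP3, which binds insulin-like growth factors in the medium, was at 10.32, 0.16 and 36.56 CPM in L1, L3 and L8, 64.5-fold lower than L1, while the other 4 libraries had 4.97 to 18.74 CPM. IGFBP2 went the other way, at 0.68, 3.93 and 0.52 CPM, but stayed below the 8.64 to 9.71 CPM of the ALDH-high clones and wild type. FGF1, an acidic fibroblast growth factor, was at 21.72, 62.50 and 14.40 CPM, the highest of all 7 libraries. EFNB2, a membrane-bound ephrin, was higher (15.08, 50.12 and 16.16 CPM), and EPHA2, a receptor for A-type ephrins, was lower (112.40, 37.79 and 102.08 CPM). TGFBR3, a TGF-beta coreceptor, was at 19.24, 1.53 and 8.96 CPM, the 1 gene standing apart among 23 TGF-beta list members.

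The list of immediate early genes and feedback inhibitors of ERK signalling held 1 higher and 2 lower genes among 28. SPRY2, an inhibitor of receptor tyrosine kinase signalling, was at 10.40, 46.31 and 13.12 CPM in L1, L3 and L8, close to the 54.23 CPM of wild type. IER3 was at 30.68, 8.92 and 32.44 CPM, and JUND, a subunit of the AP-1 factor, at 132.36, 28.40 and 61.92 CPM. CACNA1A, a neuronal calcium channel, was at 18.20, 3.69 and 20.88 CPM, the 1 gene standing apart of 24 ion channels.

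Chemokines and other NF-kB target genes made the list with the most genes standing apart on 1 side. Of 21 members, 8 were lower in L3 (CCL2, IL32, CSF1, CXCL1, CSF2, IL8, TNFSF9 and NFKB2), against 1.89% of all genes, and 1 was higher (IL18). L3 had the lowest of the 3 values in 16 of the 21. The median difference of L3 was -1.03 from L1 and -0.45 from L8, beside medians of 0.04 and -0.04 over all genes. The levels of the 23 genes of this list that had values, members or not, summed to 874.3, 273.3 and 564.8 CPM in L1, L3 and L8. The sum was 307.6, 417.9 and 983.1 CPM in H1, H6 and H10 and 708.3 CPM in wild type, so L3 had the lowest sum of the 7, with H1 near it. With a pseudocount of 5 the list held 4 lower genes instead of 8, and at a gap of 2 units 3.

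CCL2, which attracts monocytes, was at 120.72 CPM in L1, 39.36 in L8 and 1.73 in L3, 22.8-fold below L8. The ALDH-high clones had 12.16, 23.15 and 261.72 CPM and wild type 187.84 CPM, so CCL2 ranged widely among the other libraries and was lowest in L3. CXCL1, which draws in neutrophils, was at 150.28, 15.75 and 65.04 CPM in L1, L3 and L8, and IL8, which does so too, at 23.96, 1.37 and 7.24 CPM. H1 and H6 had less CXCL1 than L3 (10.81 and 9.19 CPM), whereas for IL8 no library was as low as L3. IL32 was at 82.56, 4.99 and 31.24 CPM, and at 5.4 to 18.3 CPM in the ALDH-high clones and wild type, so L1 and L8 were the high libraries. CSF1, a growth factor of macrophages, was at 112.08, 20.54 and 110.52 CPM, and CSF2, which acts on granulocytes and macrophages, at 3.36, 0.16 and 5.40 CPM. For CSF1, H1, H6 and H10 had 7.79 to 20.52 CPM, so L1 and L8 were the high libraries there. They were so for CSF2 too, with 0.16 CPM in H1, 0.37 in H6, 1.68 in H10 and 2.12 in wild type.

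The NF-kB subunit gene NFKB2 was at 40.40, 19.25 and 44.24 CPM and RELB at 26.40, 17.40 and 23.96 CPM, while NFKB1 was at 36.36, 35.47 and 32.24 CPM, with L3 between the others. NFKBIA and TNFAIP3, inhibitors of NF-kB that are themselves its targets, had gaps of -0.17 and -0.21. IL18 went against the list, at 11.16, 33.94 and 11.32 CPM in L1, L3 and L8. A run of 3 neighbouring costimulatory and complement genes on chromosome 19 was lower in L3, namely TNFSF9 (12.04, 3.73 and 13.68 CPM), CD70 (64.00, 18.19 and 56.00) and C3 (7.84, 0.24 and 2.08). CD274, the ligand of PD-1, picked after its values were seen, was higher in L3, at 1.20, 7.46 and 1.44 CPM, and at 0.52 to 1.72 CPM in the other 4 libraries.

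**Figure D3:**
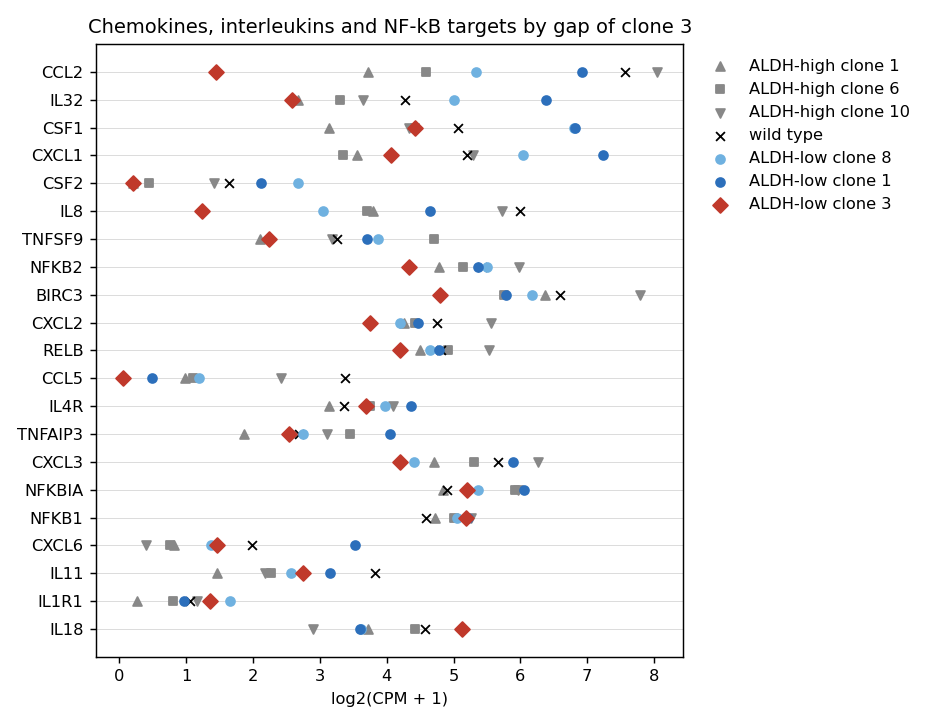
Levels of the 21 members of the chemokine, interleukin and NF-kB target list as log2(CPM + 1), with 1 point per library, ordered from the most negative gap (CCL2, -3.89) to the most positive (IL18, 1.5). ALDH-low clone 3 (red diamonds) has the lowest of the 3 ALDH-low values in 16 genes.

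The promoters of IL8 and CXCL1 are shown because both genes were lower in L3 and both hold the letters that NF-kB is known to bind. They are the 250 bases before the RefSeq start (GRCh38.p14), both on the plus strand, at chr4:73740319-73740568 for IL8 (RefSeq symbol CXCL8) and chr4:73869143-73869392 for CXCL1. Capitals mark the NF-kB letters GGANTTTCC and the AP-1 letters TGACTCA, each searched on both strands.
IL8: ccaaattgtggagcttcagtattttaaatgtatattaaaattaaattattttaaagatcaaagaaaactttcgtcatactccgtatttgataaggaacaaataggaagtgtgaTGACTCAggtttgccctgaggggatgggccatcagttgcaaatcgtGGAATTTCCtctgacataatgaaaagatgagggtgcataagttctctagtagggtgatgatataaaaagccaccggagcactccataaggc
CXCL1: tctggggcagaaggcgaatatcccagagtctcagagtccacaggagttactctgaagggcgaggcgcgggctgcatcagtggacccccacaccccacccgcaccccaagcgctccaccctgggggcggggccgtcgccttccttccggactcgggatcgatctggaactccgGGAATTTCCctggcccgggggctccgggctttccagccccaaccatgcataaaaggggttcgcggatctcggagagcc
GGANTTTCC was found in 3 of the 6 lower chemokine-list genes with a promoter in the table, against 135 of 9085 member promoters of the same length (1.49%). TGACTCA was found in 1 of the 6, against 204 of 9085 (2.25%). The list includes known NF-kB targets, so a share above that of all members can come from that choice alone. List members that were not lower were not counted, so these shares say nothing about L3. A match is a description of these letters, and no binding was measured.

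Hypoxia and glycolysis genes differed among the clones differently. Of 38 members 3 were lower in L3 and 0 higher, beside 1.89% and 1.59% of all genes, and L3 was the lowest of the 3 clones in 25 and the highest in 4. The median difference of L3 from L1 (-1.15) was far larger than that from L8 (-0.24), and L1 exceeded L8 by a median of 0.93, so the distance of L1 from both other clones was the larger part of the spread. CA9, a carbonic anhydrase of hypoxic cells, was at 21.20 CPM in L1, 0.71 in L3 and 0.52 in L8. The 3 genes that stood apart were DDIT4, an inhibitor of mTORC1 (74.92, 7.07 and 31.72 CPM in L1, L3 and L8), VEGFA, the vascular growth factor (50.20, 12.33 and 33.00), and BNIP3, a mitophagy receptor (714.44, 85.01 and 171.48). DDIT4 and VEGFA were lower in L3 than in every other library, and so was BNIP3, with 99 CPM in H10 as the nearest.

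G0S2, an inhibitor of the triglyceride lipase of fat droplets, had the widest gap among the lower genes. It was at 134.52 CPM in L1, 74.44 in L8 and 0.12 in L3, which had 3 reads against 1861 in L8 (ratio 620.3, counting interval 216 to 3066). The ALDH-high clones had 8.66, 2.63 and 21.68 CPM and wild type 161.14 CPM, so L3 lay below all other libraries. AKR1C1 and AKR1C3, aldo-keto reductases that respond to the oxidant sensor NRF2, were at 29.48, 1.49 and 15.28 CPM and at 9.68, 0.90 and 3.76 CPM. They belong to a family of near-identical copies, so reads could be split among them. The ALDH-high clones had 0 to 0.04 CPM of AKR1C1 and 0 to 0.12 of AKR1C3, and wild type 1.08 and 1.20. For both genes L1 and L8 were thus the high libraries. None of the other 24 NRF2 members stood apart, and the median difference of the list was 0.29 from L1 and 0.05 from L8. TGM2, a transglutaminase on the retinoic acid list, was at 398.12, 76.33 and 225.12 CPM.

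CLU, an extracellular chaperone, had the widest gap among abundant genes higher in L3, at 151.52, 1239.60 and 179.44 CPM, 6.91-fold above L8. H6 had 909.01 CPM and H10 548.44, so the level of L3 was less far from these than from L1 and L8. SLC1A3, a glutamate transporter, was at 2.32, 14.02 and 2.64 CPM, and FABP6, a bile acid binding protein, at 1.72, 19.64 and 5.80 CPM. In the ALDH-high clones and wild type SLC1A3 was at 3.28 to 20.66 CPM and FABP6 at 3.96 to 16.89. PPARG, the nuclear receptor that drives luminal urothelial genes and fat storage, was at 0.24, 7.94 and 3.16 CPM, the highest of all 7 libraries. Its coactivator PPARGC1A, picked after its values were seen, was at 3.61 CPM in L3 and at 0 in all 6 other libraries, at least 30.1-fold above the limit for 0 reads in L1 and L8. NRIP1, a corepressor of nuclear receptors also picked after its values were seen, was at 2.60, 31.66 and 4.04 CPM and at 2.13 to 7.55 CPM in the other libraries.

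MAGEA3, a cancer-testis antigen that normal adult tissue outside the testis does not express, was at 47.60 and 67.20 CPM in L1 and L8 and at 0.43 CPM in L3, 111-fold below L1. The ALDH-high clones had 0.16, 0.33 and 0.36 CPM, so L3 was at their level. MAGEA genes are near-identical copies, and the reads of MAGEA3 may in part belong to others. MAGEA10 was higher in L3, at 15.84, 43.41 and 20.40 CPM, and shares all its values with another listed gene. HOXC4 (2.60, 8.33 and 2.72 CPM) and HOXC8 (2.24, 7.03 and 2.60) were higher and HOXB9 (15.56, 5.30 and 11.88) lower, out of 18 HOX members. In the ALDH-high clones and wild type HOXC4 was at 6.84 to 15.27 CPM, HOXC8 at 2.74 to 7.47 and HOXB9 at 4.24 to 18.82. L3 thus lay inside their range in all of these. TSPYL5, a nucleosome assembly family member, was at 10.02 CPM in L3, at 0 in all other clones and at 0.16 CPM in wild type.

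Several lists hardly distinguished L3. Of the 47 lists examined, 16 held no gene standing apart, among them DNA replication (38 members), oxidative phosphorylation (75), HLA class I presentation (20), cholesterol synthesis (25) and heat shock proteins (24). Replication-dependent histone genes had none of 51, although L3 was the highest of the 3 clones in 38 of them, with a median difference of 0.10 from L1 and 0.40 from L8. Mitotic genes had 1 of 35, the cytokinesis protein ANLN (214.72, 94.12 and 209.32 CPM in L1, L3 and L8), with L3 lowest in 26 of 35 and median differences of -0.23 from L1 and -0.32 from L8. Of 75 ribosomal protein genes only RPS6 stood apart, at 437.96, 1969.16 and 607.60 CPM. H1 had 2812.13 CPM of RPS6, and the remaining libraries 458.89 to 558.48.

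Where L3 stood apart from L1 and L8, the 4 libraries outside the ALDH-low group were set beside it. Of the 206 higher genes, L3 lay above all 4 in 127, inside their range in 64 and below all 4 in 15. Of the 245 lower genes, L3 lay below all 4 in 125, inside their range in 108 and above all 4 in 12. Over all 12967 members L3 lay above all 4 in 2990, inside their range in 7106 and below all 4 in 2871. By at least 1 unit, L3 exceeded all 6 other libraries in 59 genes (0.455% of members) and lay below all 6 in 52 (0.401%). Wild type was nearer in level to L3 than to the mean of L1 and L8 in 107 of the higher and 122 of the lower genes, beside 6298 of all 12967.

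Among the named genes in which L3 was nearer to the ALDH-high clones than to L1 and L8, 2 patterns are given here. In some, L3 had a transcript that the ALDH-high clones and wild type also had and that was at or near 0 in L1 and L8. CLEC2B, a C-type lectin, was at 0, 8.72 and 0 CPM in L1, L3 and L8 against 13.09 to 34.32 CPM in the other 4 libraries. AASS, an enzyme of lysine breakdown, was at 0.20, 7.58 and 0.04 CPM against 4.04 to 13.55 CPM, and ETV1, an ETS transcription factor, at 0.12, 6.87 and 0.36 CPM against 5.01 to 13.35 CPM. GPR98, a very large adhesion receptor, was at 0.04, 33.55 and 0 CPM, with 854 reads against 1 in L1 (ratio 839, counting interval 150.1 to 33165), and exceeded the 4.16 to 12.81 CPM of the other 4 libraries. In other genes, L1 and L8 had a transcript that was at or near 0 in L3 and the ALDH-high clones. EVA1A, a regulator of autophagy, was at 9.32, 0 and 10.04 CPM and at 0 in all 3 ALDH-high clones, and RIPK4, a kinase of keratinocyte differentiation, was at 9.36, 0.20 and 6.08 CPM and at 0 to 0.04 CPM in them. Neither pattern held for 15 genes chosen for their higher level in the ALDH-high clones of these libraries, of which only 5 were members. Of these, CPED1 (0.16, 3.61 and 0.72 CPM) and RORB (0.04, 1.14 and 0.04) were higher in L3. The ALDH-high clones had at least 19.40 and 5.29 CPM, so on the log2 scale L3 was nearer to L1 and L8. Both genes became members only through L3, so the minimum of 1 CPM favoured a higher call.

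One set of lower genes moved with the state of H1 and wild type. These 2 libraries lay at least 1 unit below both H6 and H10 in 418 of all 12967 genes (3.22%), in 34 of the 245 genes lower in L3 (13.88%) and in 2 of the 206 higher ones. Among the 34, picked after their values were seen, HIPK1, a nuclear kinase, was at 41.08, 9.70 and 43.32 CPM in L1, L3 and L8 and at 5.84, 39.44, 40.88 and 6.75 CPM in H1, H6, H10 and wild type. PURB, a single-stranded DNA binding protein, likewise had its lowest values in H1 and wild type, at 38.12, 9.07 and 43.36 CPM and at 3.78, 26.06, 32.00 and 2.24 CPM. L3 lay between the low pair and the rest in both genes. The median transcript GC content was 56.74% in these 34 genes, 50.28% in the other genes lower in L3, 44.32% in the higher genes and 47.81% over all members. Over 5 equal groups of all members by GC content, the median difference of L3 from the mean of L1 and L8 went from 0.07 in the group with the lowest content to -0.08 in that with the highest. With the median of each such group subtracted in each library, 207 genes were higher and 232 lower. Whether RNA quality or library preparation has a part in this set was not tested.

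L3 also differed from L1 and L8 over stretches of neighbouring genes. In 25-gene windows along the chromosomes, the median difference of L3 from the mean of L1 and L8 was 0.45 or more in 286 windows and -0.45 or less in 615, together 7.755% of 11618. The same measure for L1 against the mean of L3 and L8 was past the limit in 0.7747% of windows, for L8 in 1.816%, and for H1, H6 and H10 within their group in 1.214%, 3.124% and 0.198%. The windows of L3 joined into 26 segments, 12 lower with 991 genes (8.14% of 12170 placed genes) and 14 higher with 643 (5.28%). Of the lower genes placed, 67 of 229 (29.3%) lay in a lower segment, and of the higher ones 42 of 194 (21.6%) in a higher segment. Segments were defined from the same values as the gaps, so these shares are a description. Copy number was not measured, and its part was not tested.

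The longest segment held 347 neighbouring genes on chromosome 1, from MTND2P28 to RP1-39G22.7, with a median difference of -0.46 from L1 and -0.57 from L8, while L1 and L8 differed by -0.10. The ratio of L3 to the mean of the others that corresponds to the segment's median was 0.70. L3 was the lowest of the 3 clones in 298 of the 347 genes. Standing apart in it were EPHA2, HSPG2, DVL1, PINK1 (83.16, 29.62 and 84.76 CPM in L1, L3 and L8), a kinase of mitochondrial quality control, and TP73 (1.80, 0 and 1.72 CPM), a p53 relative, among 14 lower and 0 higher genes. On chromosome 7, 84 genes from AC007255.7 to CCT6A had a median difference of -0.58 from L1 and -0.82 from L8, and 12 of them stood apart. Against the median of all 7 libraries, L3 was at a median of -0.38 in the chromosome 1 segment, with L1 at 0.0025 and L8 at 0.15, and at -0.33 in the chromosome 7 segment, with L1 at 0.17 and L8 at 0.40. These included IGFBP3, PURB, ANLN, CCM2 (56.20, 15.60 and 50.72 CPM), a scaffold of endothelial and epithelial junction signalling, UPP1 (183.16, 48.67 and 268.32), a uridine phosphorylase, and TNS3 (4.44, 0.39 and 7.52), a focal adhesion protein.

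Stretches in which L3 exceeded L1 and L8 were found on other chromosomes. On chromosome 11, 99 genes from USP35 to C11orf71 had a median difference of 0.57 from L1 and 0.34 from L8, and L3 was the highest of the 3 clones in 80. NCAM1, MMP1, MMP3, IL18 and the protease CTSC were among 9 genes in it that stood apart. Against the median of all 7 libraries L3 was at a median of 0.0023 here, L1 at -0.46 and L8 at -0.22, so in this stretch L1 and L8 were low and L3 was at the level of the rest. Their gaps differed greatly from the median of the stretch, NCAM1 having 5.90 and MMP3 3.52 units. On chromosome 8, 59 genes from ZNF596 to BIN3 had a median difference of 0.54 from L1 and 0.55 from L8 and held CTSB and GATA4, a transcription factor at 0.24, 3.54 and 0.28 CPM in L1, L3 and L8. A further stretch of chromosome 8, from TRIM35 to WRN with 28 genes, held CLU. Chromosome 15 had both kinds, with 92 genes from GOLGA8B to FAM227B at a median of -0.46 from the mean of L1 and L8, among them C15orf48, and 120 genes from RPLP1 to PRC1 at 0.51. In the first of these L3 was at a median of 0 from the median of all 7 libraries, with L1 at 0.34 and L8 at 0.44, so L1 and L8 were high there. In the other, L3 was at 0.42 and both L1 and L8 at 0.

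**Figure D4:**
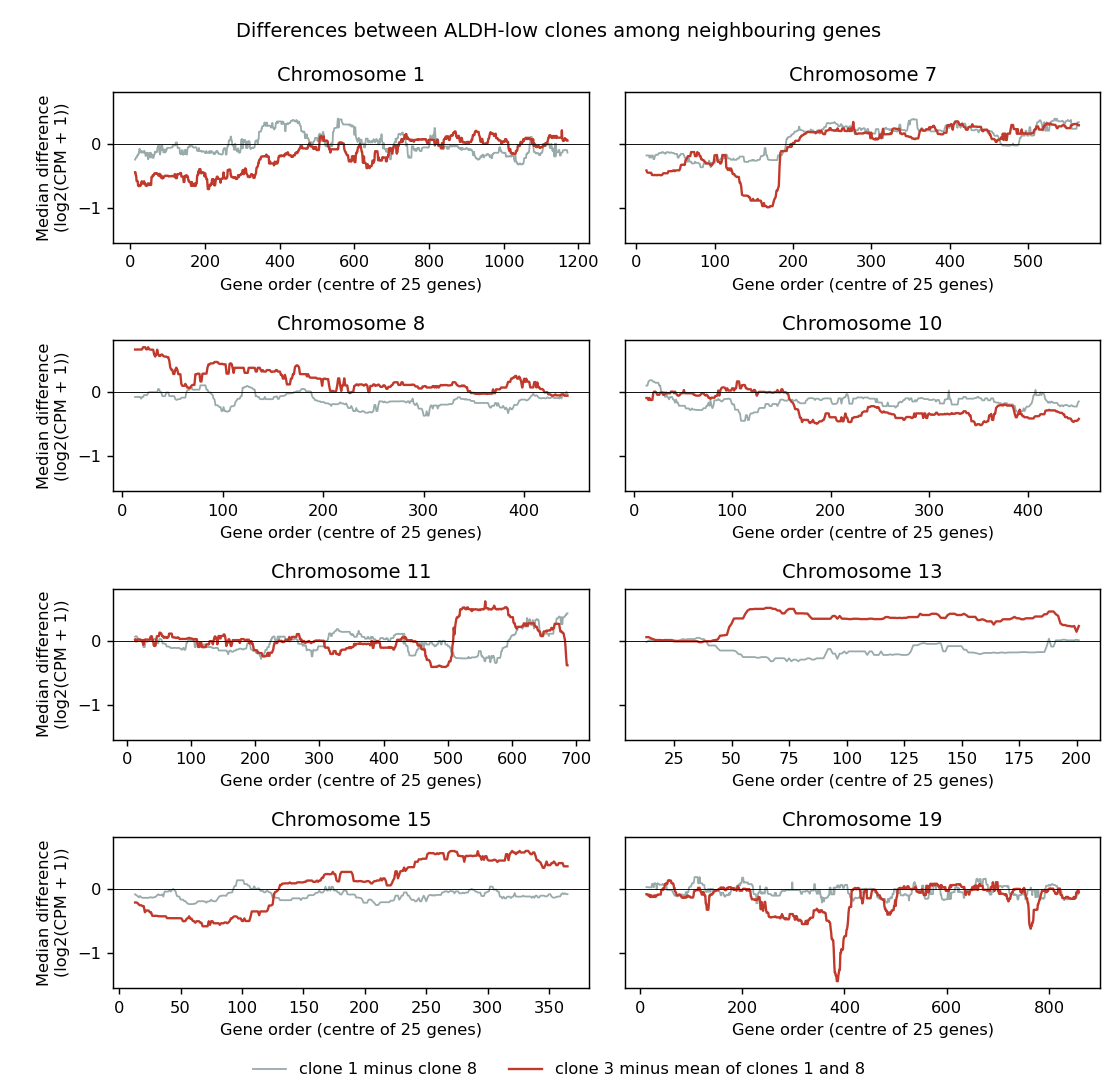
Median difference on the log2(CPM + 1) scale in sliding windows of 25 neighbouring genes (vertical axis) against gene order along 8 chromosomes (horizontal axis), for ALDH-low clone 3 minus the mean of clones 1 and 8 (red) and for clone 1 minus clone 8 (grey). The red line stays below 0 over the first 347 genes of the chromosome 1 segment, is above 0 over most of the later part of chromosomes 11 and 15, and has its lowest point on chromosome 19.

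Runs of 3 or more neighbours that each stood apart on the same side numbered 8, with 28 genes. The higher runs were ETV1, DGKB and AGMO on chromosome 7, CPED1, FAM3C and AASS on the same chromosome, and SDC2, CPQ and TSPYL5 on chromosome 8. In the first, DGKB (2.20 CPM in L3) was at 0 in all 6 other libraries, while its neighbour ETV1 was present in the ALDH-high clones and wild type. In the last, the carboxypeptidase CPQ was at 1.28, 9.51 and 1.76 CPM in L1, L3 and L8. The lower runs were ATP8B1, NEDD4L and MALT1 on chromosome 18, TNFSF9, CD70 and C3 on chromosome 19, and 3 runs of zinc finger genes on chromosome 19.

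Zinc finger genes formed the densest stretch. Of 394 member genes whose symbol starts with ZNF, 0 were higher in L3 and 28 lower. The 30 of them within the chromosome 19 segment from GDF1 to DPY19L3, a group chosen after the values were seen, held 16 of the 28. Elsewhere on chromosome 19, 7 of 153 were lower (4.58%), and on other chromosomes 5 of 211 (2.37%). Zinc finger proteins with a KRAB domain, which most genes of this stretch encode, are known as repressors of transposable elements, and the genes lie in tandem copies of close sequence.

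In the segment L3 was the lowest of the 3 ALDH-low clones in 29 of the 30 genes and the lowest of all 7 libraries in 26. The median difference was -1.30 from L1, -1.26 from L8 and -1.45 from wild type, while L1 and L8 differed by a median of 0.06. ZNF492 was at 14 CPM in L1, 8.44 in L8 and 0.04 in L3, with 1 read against 211 in L8 (ratio 211, counting interval 38.1 to 8526), and at 10.15 to 16.52 CPM in the other 4 libraries. ZNF90 was at 7.16 and 7.88 CPM in L1 and L8 and at 0 in L3, at least 60.8-fold lower, with 5.68 to 8.36 CPM elsewhere. ZNF85 was at 5.64, 0.04 and 6.04 CPM, and ZNF93, ZNF253, ZNF682, ZNF66, ZNF726 and ZNF486 were at 0 in L3. In the first 5 of these 6 genes the other libraries had 1.39 CPM or more, so L3 stood alone, whereas ZNF486 was at 0.12 CPM in L1. ZNF737 was at 0.04 CPM in L3 and at 0 in H1. With a pseudocount of 5, which shrinks the differences of low genes, 5 of the 30 passed the threshold instead of 16, and with genes kept only from 5 CPM upward 10 did.

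Not all neighbours followed. ZNF826P (4.48, 3.02 and 3.88 CPM in L1, L3 and L8), ZNF708 (6.04, 4.40 and 8.04), ZNF724P (22.72, 17.52 and 27.44) and ZNF730 (7.08, 4.87 and 6.08), which lie among the lower genes, had gaps of only -0.27 to -0.38. ZNF507, at the far end, was the only 1 of the 30 with L3 highest (24.88, 41.05 and 32.76 CPM). Of the 37 other genes in the segment, 4 were lower, with median differences of -0.35 from L1 and -0.39 from L8, smaller than those of the zinc finger genes beside them. Since reads of tandem copies can be shared, the levels of single members are less certain than that of the stretch.

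**Figure D5:**
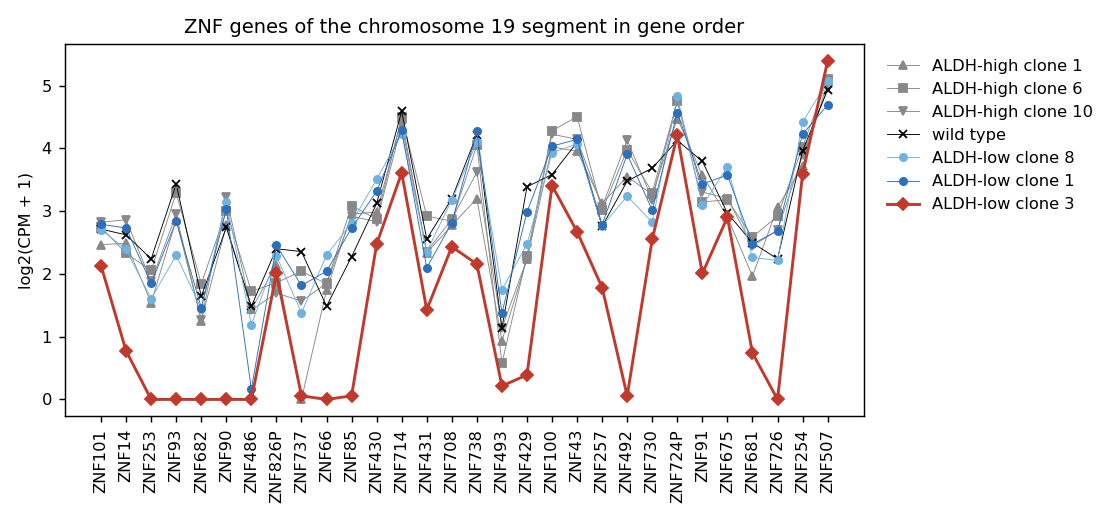
Levels of the 30 ZNF genes of the chromosome 19 segment as log2(CPM + 1) (vertical axis), in gene order (horizontal axis), with 1 line per library. ALDH-low clone 3 (red diamonds) is the lowest of the 7 libraries in 26 genes, reaches 0 in 7 of them, and is highest at ZNF507.

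The promoters of ZNF90, ZNF85 and ZNF492, the genes of the segment with the widest gaps, are shown because they share long stretches of letters. They are the 250 bases before the RefSeq start (GRCh38.p14) on the plus strand, at chr19:20077750-20077999, chr19:20923001-20923250 and chr19:22634074-22634323. Capitals mark the 5 words of at least 10 letters that all 3 hold.
ZNF90: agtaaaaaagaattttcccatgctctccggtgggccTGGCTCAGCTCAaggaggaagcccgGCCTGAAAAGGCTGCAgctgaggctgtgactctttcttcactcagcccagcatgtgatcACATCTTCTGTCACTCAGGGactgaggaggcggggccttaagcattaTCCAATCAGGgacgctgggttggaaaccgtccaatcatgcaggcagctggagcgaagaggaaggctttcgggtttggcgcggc
ZNF85: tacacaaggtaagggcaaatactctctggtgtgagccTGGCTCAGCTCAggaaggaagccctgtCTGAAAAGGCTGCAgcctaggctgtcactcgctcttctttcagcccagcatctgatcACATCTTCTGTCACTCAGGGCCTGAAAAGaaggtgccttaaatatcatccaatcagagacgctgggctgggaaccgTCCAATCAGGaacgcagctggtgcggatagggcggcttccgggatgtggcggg
ZNF492: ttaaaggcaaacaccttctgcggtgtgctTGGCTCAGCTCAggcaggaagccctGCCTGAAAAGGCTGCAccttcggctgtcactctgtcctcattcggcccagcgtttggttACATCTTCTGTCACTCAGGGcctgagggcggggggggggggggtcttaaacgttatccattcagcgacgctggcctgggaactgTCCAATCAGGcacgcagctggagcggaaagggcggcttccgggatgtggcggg
The longest, ACATCTTCTGTCACTCAGGG, was found on either strand in 7 of 27 promoters of ZNF genes of the segment, in 0 of 310 of other ZNF genes and in 7 of all 9085 (0.0771%). CTGAAAAGGCTGCA was found in 11 of 27, and in 13 of 9085 (0.143%). TGGCTCAGCTCA likewise was in 11 of 27 and in 13 of 9085. GCCTGAAAAG, which overlaps CTGAAAAGGCTGCA in the promoters of ZNF90 and ZNF492 but not in that of ZNF85, was in 13 of 27 and in 20 of 9085 (0.22%). TCCAATCAGG was in 24 of 27, in 24 of 310 other ZNF promoters and in 59 of 9085 (0.649%). Within the segment it was in 13 of the 14 promoters of lower genes and in 11 of the 13 of genes that did not stand apart, so these letters were common on both sides of the threshold. CTGAAAAGGCTGCA was in 8 of the 14 and in 3 of the 13. The 3 promoters that defined the words are among the 14 and the 27 and hold each word by construction. These counts are therefore no evidence of a link between the words and the gaps. The median number of CG pairs was 8 in these 27 promoters, 19 in those of other ZNF genes and 22 over all members.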

How the data were processed

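RNA from 7 UM-UC-3 cultures was analysed, with 1 library per clone and 1 wild type. The deposited table gives CPM per gene, scaled and rounded to 2 decimals by the authors, with gene symbol, identifier and strand. The submitters' processing notes name the aligner BWA (0.5.9) and 2 builds, hg19 and mm9, with no role for either, and per the file headers each column carries the name of CAGEr, a package for 5′-end tags. No source used here gives the counting tool. Columns sum to 967084.89 to 1019855.06 CPM. Whole reads recovered from the step of each column served for counting intervals and limits, not for a count test. They came out whole within a tolerance of 0.0051 CPM (the rounding), but in L3 and H6 not all did at a stricter one.

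Genes with at least 1 CPM in 1 or more ALDH-low clones were kept (12967). The gap of L3 from the nearer of L1 and L8 on log2(CPM + 1), with a pseudocount of 1 CPM, was counted from 1 unit. No test was run, since each clone had 1 library. The same gap was computed for the other clones. The members and the 47 gene lists were chosen with earlier results of these data known. The naming rule took the 20 largest gaps in each direction, up to 4 genes per list, the 10 largest gaps from all 6 other libraries in each direction, on and off genes, and runs of 3 or more neighbours (119 genes), and GRIK2 and ALDH1A1. Some of them that repeat a pattern are not reported here, and genes outside the rule, including those without a gap, were chosen after their values were seen.

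Gene order and transcript GC content came from GENCODE 29 (GRCh38), which matched 96.7% of members by identifier. As the notes give a different build, no coordinate of it is printed, only the chromosome and the order of genes. Windows held 25 genes, with 1 kept per set of identical values. Promoters were taken from RefSeq (GRCh38.p14), matched by symbol for 9085 members. Analyses used Python 3.11.15, pandas 2.3.3, numpy 2.4.6, scipy 1.17.1 and matplotlib 3.10.9, and the steps were tested on simulated data. Alternatives were 2 pseudocounts, 2 filters, 2 scalings, 1 gene per identical set, each other clone left out, the mean of L1 and L8, a gap of 2 units and, added after the data were seen, subtraction of medians by GC content and all alternatives for the chemokine list, zinc finger genes and segments.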

Additional observations from a re-analysis of the deposited data

How the results depend on the processing

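The counts of 206 higher and 245 lower genes depended on the scale. A pseudocount of 0.1 gave 308 and 421, a pseudocount of 5 gave 81 and 97, and a minimum of 5 CPM gave 129 and 210. Against the mean of L1 and L8 there were 318 and 391, and at a gap of 2 units 50 and 40. Leaving out 1 of the other clones gave 366 to 414 higher and 443 to 494 lower genes, since L3 was then compared with 1 clone only. All 206 and 245 genes were among them by definition, because a gap from the nearer clone holds for each clone. Median-ratio scaling (208 and 238), quantile normalization (206 and 235), 1 gene per identical set (196 and 237) and GC subtraction (207 and 232) stayed within 1.5 times. Without a filter the counts were 206 and 245 by construction, since genes below 1 CPM in every ALDH-low clone cannot reach a gap of 1 unit. Of the 1175 recomputed gaps of the 119 named genes 0 were reversed and 340 moved, changing by more than the standard deviation of L1 and L8. A pseudocount, a filter, leaving out a clone or using the mean cannot reverse such a gap. Only the 2 scalings and GC subtraction could, so the absence of reversals was largely fixed in advance. Of 56 recomputed medians of 8 segments 0 were reversed and 12 moved, here by more than the median difference of L1 and L8 divided by the square root of 2. No paired analysis was possible because the comparison lies within 1 group and its clones share no number. A level below 0.118 CPM in L3 cannot be told from 0 reads at this depth.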

Other observations

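The 59 genes in which L3 exceeded all 6 other libraries by at least 1 unit included some absent or nearly absent outside L3, picked here after their values were seen. NRG3, a ligand of the ERBB4 receptor, was at 3.69 CPM in L3, at 0 in all 5 other clones and at 0.04 CPM in wild type, at least 30.7-fold above the limit for 0 reads in L1 and L8. TRHR, the receptor of thyrotropin-releasing hormone, was at 2.24 CPM in L3 and at 0 in the 6 other libraries. C6orf141 was at 5.62 CPM in L3, at 0 in the other clones and at 0.04 CPM in wild type. TNIK, a kinase linked to Wnt signalling, was at 10.88 CPM in L3, at 0 in L1 and L8 and at 0.12 to 0.68 CPM in the other 4 libraries.

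Some regulators found in every library were higher in L3, picked again after their values were seen. HMGA2, a chromatin protein of embryonic and tumour cells, was at 22.56, 142.56 and 40.24 CPM in L1, L3 and L8 and at 67.00 to 111.78 CPM in the other 4 libraries. AKAP12, a scaffold of protein kinase A, was at 46.52, 160.78 and 45.88 CPM and at 10.64 to 40.53 CPM in the other 4. GEM, a small GTPase, was at 28.20, 154.46 and 45.40 CPM. IFI16, a sensor of DNA, was at 12.32, 44.63 and 15.56 CPM. Of 29 interferon-stimulated genes on the list, IFI44 (1, 7.66 and 2.40 CPM) and ISG20 (8.84, 20.78 and 4.64) were higher in L3, and DDX58, the RNA sensor RIG-I (12.28, 2.67 and 9.76), and IFI30 (4.32, 1.57 and 5.72) lower. In the ALDH-high clones and wild type IFI44 was at 3.84 to 17.94 CPM and ISG20 at 17.21 to 49.88, so L3 lay inside their range. DDX58 was at 8.16 to 55.27 CPM there and IFI30 at 2.54 to 8.35, so L3 lay below them.

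Promoters of the 117 higher genes with an entry held the letters TATAAA on either strand in 13 (11.1%), beside 453 of 9085 member promoters (4.99%) and 13 of 170 promoters of lower genes (7.65%). Their median number of CG pairs was 16, against 22 over all members and 22 in the lower genes.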
